A study of Saccharomyces cerevisiae with 7 samples.

Results

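The 500 bp upstream of the start codon and the open reading frames (ORFs) of 40 genes of amino acid biosynthesis were examined in maps of Spo11-linked DNA ends from meiotic Saccharomyces cerevisiae. The genes were chosen by name and pathway, by a rule that uses no hit value. They are 40 of the 5834 protein-coding genes outside chromosome III in the gene table, lie on 13 chromosomes and fall into 9 pathway groups. All 40 had enough unmasked sequence to be tested, as did 5617 of the 5834 genes, which are called all ORFs here.

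The maps come from CC-seq, which recovers DNA fragments that remain covalently bound to a protein, removes that protein and sequences the exposed 5′ ends. A hit from a Spo11 break marks the nucleotide to which Spo11 was linked. Not every hit is of this kind, since the control library described below also holds hits. All cells were SK1 cultures with a deletion of SAE2 (sae2∆::kanMX), harvested after 6 h in sporulation medium. Without Sae2 the Spo11-bound ends are not clipped off and stay in place, so that the maps show unprocessed breaks. The SPO11+ group had 5 biological replicates, the fifth being the sum of 2 technical libraries, and the control was 1 library of spo11-Y135F sae2∆ cells, in which the catalytic tyrosine of Spo11 is replaced. Total hits were 3177210, 8564017, 4502308, 3559541 and 3569290 in SPO11+ replicates 1 to 5 and 2326054 in spo11-Y135F. The fifth replicate is labelled sae2 like the others, but its maps were deposited under names that say wild type.

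Yeast makes amino acids from intermediates of glycolysis, the citric acid cycle and sulphate assimilation, and Gcn4, a bZIP activator whose translation rises when amino acids run short, switches on most of these pathways together by binding upstream of their genes. Pathway-specific activators such as Leu3, Lys14 and Met4 act at subsets of them. Spo11 makes the double-strand breaks that start meiotic recombination, and in yeast it cuts mainly in the nucleosome-depleted DNA of gene promoters, where hits gather into hotspots. A break leaves a Spo11 molecule on each strand with a short stagger, so that a Watson hit and the Crick hit of the same break fall on neighbouring positions.

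Hits are given as HpM, hits per 1000000 total hits of a library, divided by the unmasked length of the window. Of the 40 members 39, all but LYS1, had more hits per bp upstream than in their ORF, with edgeR's quasi-likelihood test and Benjamini-Hochberg adjustment over all ORFs at a threshold of 0.05. Among all ORFs 89.3% passed in that direction, so the count itself is near the background. No member had the reverse, with or without adjustment or with DESeq2, and all 40 fitted ratios were above 1. The reverse was called in 4.36% of all ORFs. The size of the contrast differed more than the count. The median fitted ratio of upstream to ORF density was 18.0 over the members and 5.77 over all ORFs, and the spo11-Y135F library gave median ratios of 1.05 and 1.04.

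**Figure D1:**
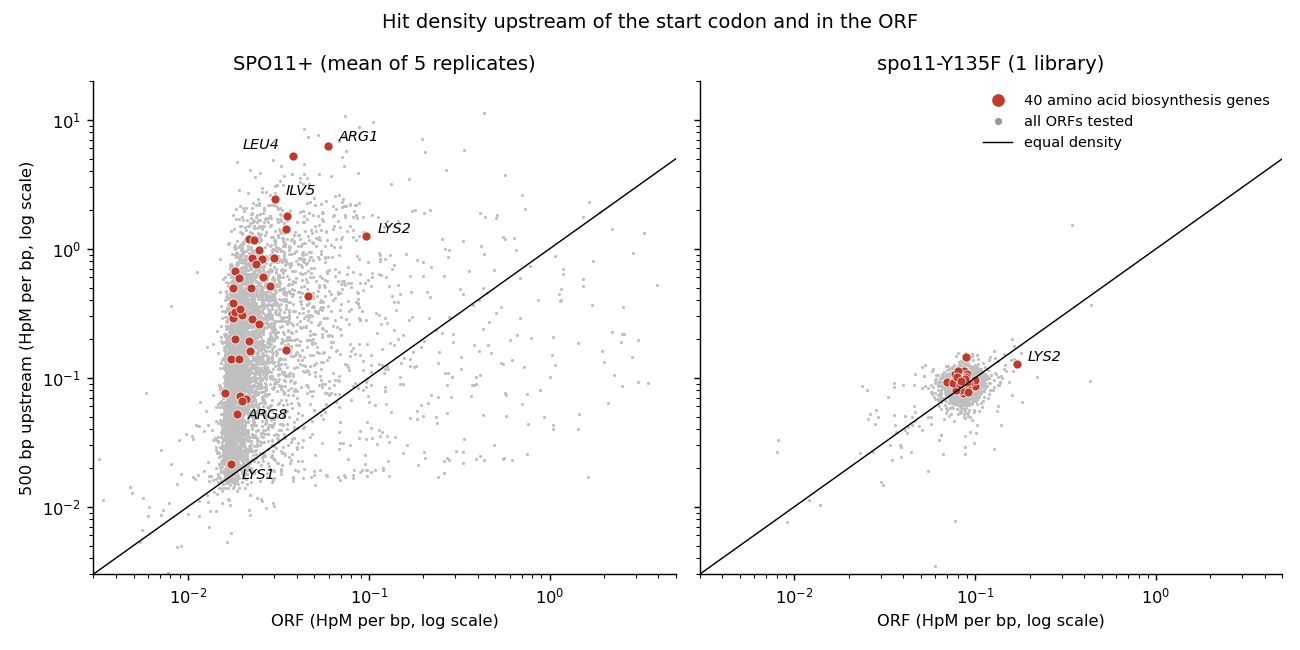
Hit density in the 500 bp upstream (vertical) against the ORF (horizontal), both in HpM per bp on log scales, for all ORFs (grey) and the 40 amino acid biosynthesis genes (red), as the mean of 5 SPO11+ replicates on the left and in the spo11-Y135F library on the right. In SPO11+ the members spread far above the line of equal density, LYS1 lying closest to it, and in spo11-Y135F they gather around it.

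The members carried more upstream hits than the typical gene, and the spread among them was wide. The ratio of the members' median upstream density to that of all ORFs was 3.21, 2.87, 3.30, 2.75 and 3.39 in replicates 1 to 5, a mean of 3.10 ± 0.28 (SD, n = 5), and 1.00 in spo11-Y135F. The median over members was 0.406 HpM per bp and that over all ORFs 0.129. ORF medians lay close to each other, at 0.0219 HpM per bp for members and 0.0201 for all ORFs. The highest member exceeded the lowest by 293.5-fold. Of the 40 members 34 lay above the median of all ORFs, 13 were in its top 10% and 2 in its lowest 25%. The windows, 20000 bp without any overlap or 0.179% of the analysed length, took 1.62%, 1.67%, 1.59%, 1.60% and 1.70% of all hits in replicates 1 to 5. The mean of 1.63% ± 0.05 (SD, n = 5) was 9.11 times their share of length, whereas in spo11-Y135F they took 0.187% (95% Wilson interval 0.182% to 0.193%), 1.05 times that share. The windows of all ORFs took 67.0% of hits in SPO11+ on average and 21.9% in spo11-Y135F. Their mean SPO11+ density was 0.313 HpM per bp, against 0.817 for members.

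**Figure D2:**
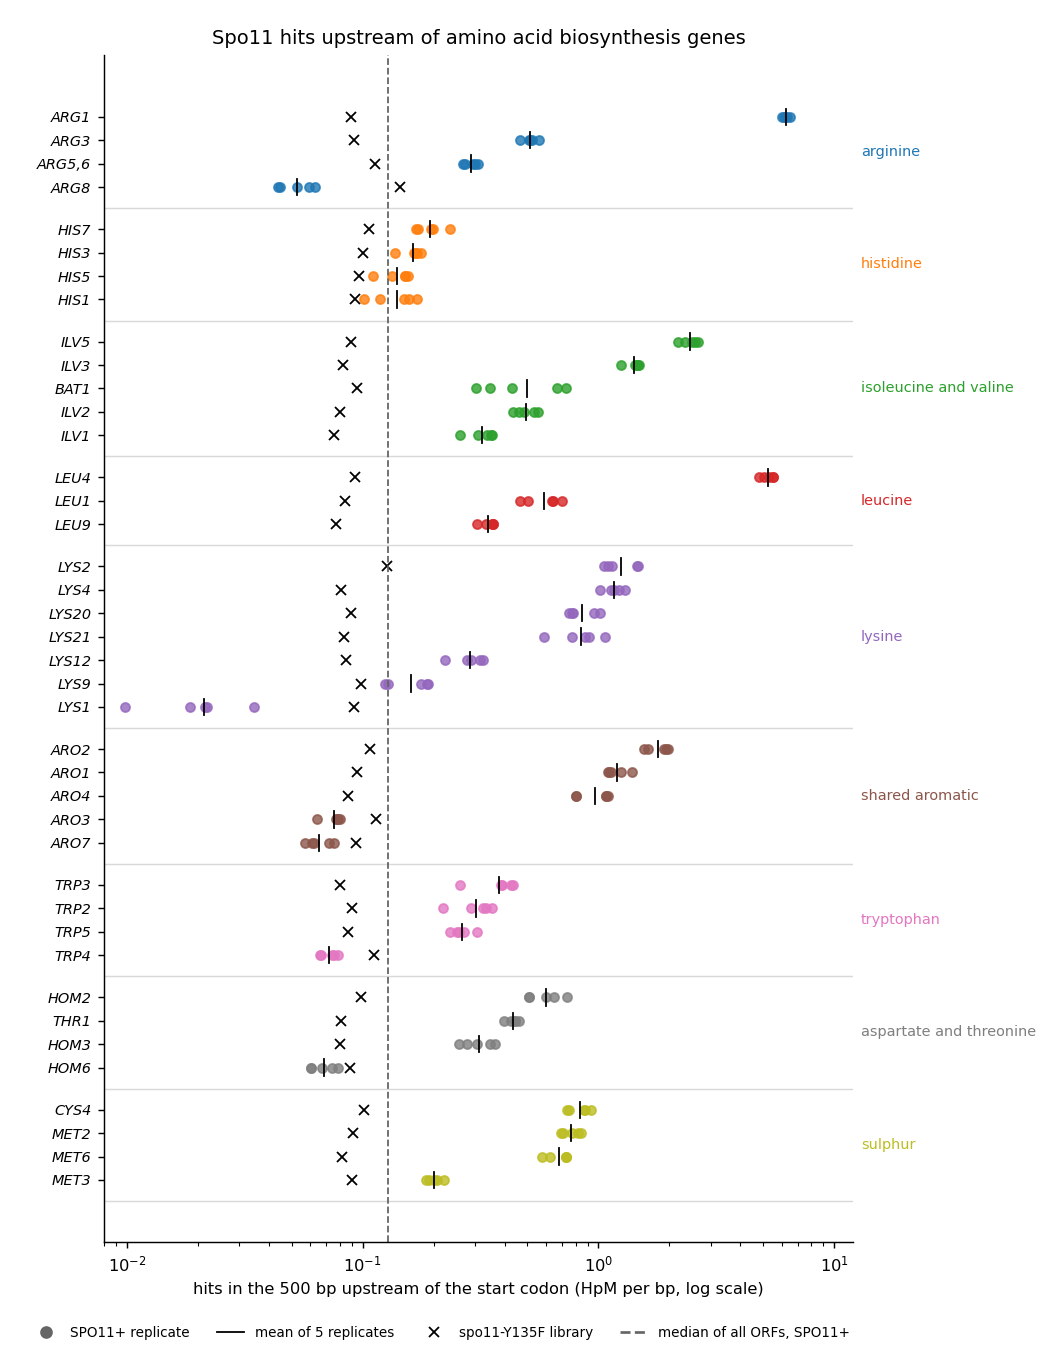
Upstream hit density (HpM per bp, log scale) of each member by pathway group, with a dot for each of the 5 SPO11+ replicates, a bar for their mean, a cross for the spo11-Y135F library and a dashed line at the SPO11+ median of all ORFs. Members span from LYS1 at 0.0213 to ARG1 at 6.24 HpM per bp while the crosses stay between 0.0757 and 0.144.

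HpM is a share of a library's hits, and the hits of spo11-Y135F were spread nearly evenly, with a median of 0.0862 HpM per bp in ORFs, so that its level is a reference for each gene and not an amount of breaks. In 34 members every SPO11+ replicate lay above the spo11-Y135F value (56.3% of all ORFs), and in 29 the lowest replicate was at least 2 times that value (36.2% of all ORFs). The values did not overlap in the other 6 members either, ARO3, TRP4, HOM6, ARO7, ARG8 and LYS1, where all replicates lay below it (34.6% of all ORFs). With 1 control library no test across samples was made. Hotspots, called where smoothed signal exceeded 3 times its mean, overlapped the upstream windows of 34 members (60.5% of all ORFs). These were the same 34 genes, but both counts rest on the same SPO11+ upstream hits and are not independent. The 268 strongest of the 2682 hotspots, 10% of them, reached the windows of 10 members (7.85% of all ORFs).

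ARG1 and LEU4 stood apart from the other members. ARG1 encodes argininosuccinate synthetase, which joins citrulline to aspartate late in arginine synthesis. Its upstream density was 6.33, 6.04, 6.19, 6.14 and 6.50 HpM per bp in replicates 1 to 5, from 10053 to 25847 hits, against 0.0894 in spo11-Y135F (104 hits). It ranked 11 of all ORFs and varied least among the members, with a coefficient of variation of 2.87%. Upstream density exceeded that of the ORF by 6.71 ± 0.11 on the log2 scale (SE; edgeR adjusted p = 4.99e-49). LEU4 encodes the main isopropylmalate synthase, which commits a precursor shared with valine to leucine. It gave 5.06, 4.81, 5.30, 5.51 and 5.52 HpM per bp, against 0.0929 in spo11-Y135F, and a log2 ratio to the ORF of 7.09 ± 0.12 (SE; edgeR adjusted p = 5.47e-49). The ARG1 value exceeded that of LEU4 in 5 of 5 replicates, and their ranges did not overlap. Together they held 35.1%, 32.6%, 36.2%, 36.4% and 35.5% of all hits in members' windows, and 4.87% in spo11-Y135F.

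The hotspots at both genes extended beyond a single site, and at ARG1 a single site held a large part. Its hotspot on chromosome XV (218661 to 219204 in Cer3H4L2, the build of the maps, which also holds for the positions below, 544 bp, between ARG1 and the tandem neighbour GPD2) held 3134 ± 88.9 HpM (SD, n = 5) and ranked 14 of 2682. Watson position 218854 with Crick position 218855, in the far part of the window, alone held 866 ± 79.2 HpM (SD, n = 5). That is 27.8% of the window's hits, and it was the strongest of the 964390 paired sites on the 15 chromosomes analysed. Its hits were balanced between strands in sum, 10221 Watson and 9817 Crick over the 5 replicates, with 1 hit in spo11-Y135F. Only 10 positions held 50% of the ARG1 window's hits, the fewest of any member (median 21). At LEU4 the 827 bp hotspot (chromosome XIV, 426764 to 427590) held 3589 ± 235 HpM and ranked 11. It fills most of the 980 bp between LEU4 and the divergent MET4, which encodes the activator of the sulphur genes. The strongest LEU4 site, Watson 427123 with Crick 427124, held 243 ± 32.5 HpM or 9.26% of the window and ranked 19 of all paired sites.

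**Figure D3:**
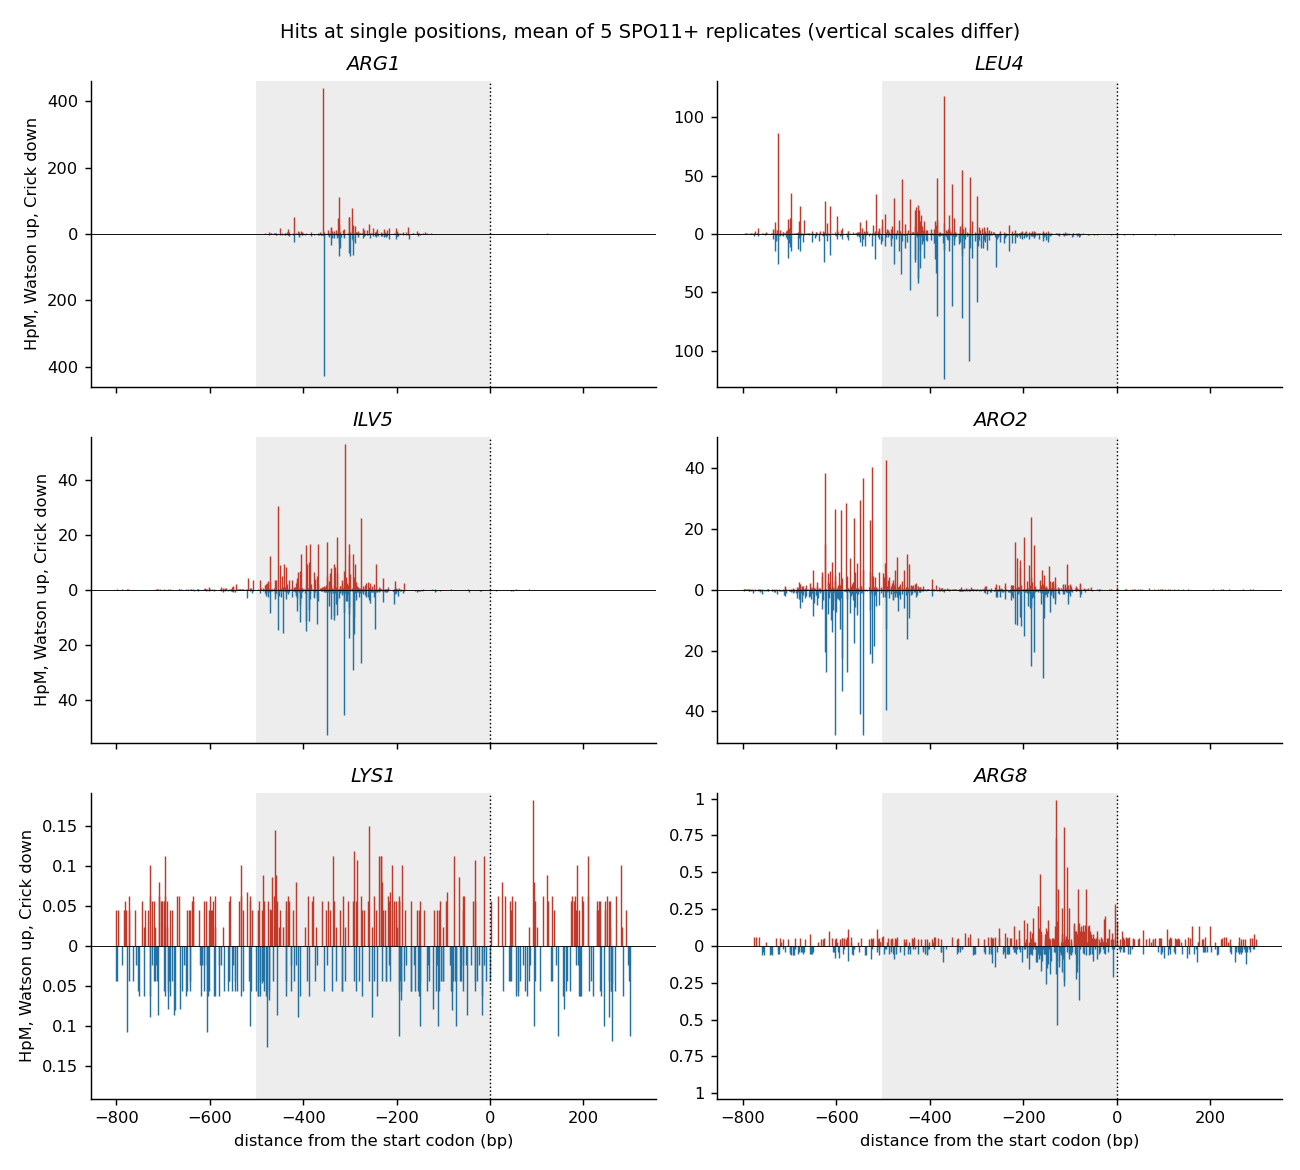
Hits at single positions (HpM, mean of 5 SPO11+ replicates) against distance from the start codon in bp, with Watson hits upward, Crick hits downward, the 500 bp window shaded and a separate vertical scale in each panel. The single dominant pair of ARG1 contrasts with the many sites of LEU4, ILV5 and ARO2, and LYS1 shows only scattered hits at a scale below 0.2 HpM.

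The next genes in the order belong to the branched-chain and aromatic pathways. ILV5 encodes acetohydroxyacid reductoisomerase, shared by isoleucine, valine and leucine synthesis, and gave 2.49, 2.33, 2.57, 2.17 and 2.64 HpM per bp (0.0894 in spo11-Y135F). ARO2 encodes chorismate synthase, the last step common to the aromatic amino acids, and gave 1.62, 1.91, 1.97, 1.56 and 1.94 (0.107 in spo11-Y135F). ILV3, for dihydroxyacid dehydratase, gave 1.43, 1.49, 1.47, 1.25 and 1.46 (0.0825 in spo11-Y135F). Each of LEU4, ILV5 and ARO2 exceeded the next gene in 5 of 5 replicates with ranges that did not overlap. The order from ARG1 down was set by the mean of these same replicates, so the direction of each difference is largely given by the sorting. Of the 39 pairs of neighbours in the whole order, the ranges of 7 did not overlap, the 4 from ARG1 to ILV3 and, lower down, TRP5 over MET3, HIS1 over ARO3 and ARG8 over LYS1. ILV3 exceeded LYS2 in 4 of 5 replicates.

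ARO2 differed from the others in shape. Its hotspot (chromosome VII, 225555 to 226366, 812 bp, 2034 ± 338 HpM, rank 29) had 2 clusters, with 39.1% of the window's hits between 101 and 200 bp and 35.1% between 401 and 500 bp from the start codon, and the farther cluster ran on past the window's edge. LYS4 likewise reached its highest smoothed signal at the edge of the window.

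LYS2, ARO1 and LYS4 also exceeded 1 HpM per bp in the mean. LYS2, for aminoadipate reductase, gave 1.06, 1.48, 1.14, 1.46 and 1.10 HpM per bp (0.127 in spo11-Y135F). ARO1, for the pentafunctional enzyme that carries out the middle steps of the shikimate pathway, gave 1.11, 1.39, 1.24, 1.10 and 1.13 (0.0946 in spo11-Y135F). LYS4, for homoaconitase, gave 1.17, 1.23, 1.13, 1.02 and 1.29 (0.0808 in spo11-Y135F). No fixed order among these 3 held over the replicates, since LYS2 exceeded ARO1 in 2 of 5 and ARO1 exceeded LYS4 in 3 of 5. The ARO1 window holds 261 bp of the neighbouring SWF1 ORF, and 59.9% of its hits lay outside annotated ORFs.

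LYS2 was also unusual inside its ORF. The ORF held 0.0970 HpM per bp in SPO11+, 4.82 times the median of all ORFs and the highest of the members, and 0.169 in spo11-Y135F, 1.96 times the median there. The other members' ORFs lay between 0.0702 and 0.0993 HpM per bp in spo11-Y135F, and 7 of all ORFs reached the LYS2 value. A hotspot inside the LYS2 ORF (chromosome II, 472133 to 472344), 1582 bp from the start codon, held 210 ± 36.7 HpM in SPO11+ (SD, n = 5) and 42.1 in spo11-Y135F. The number of LYS2 copies in these strains was not tested. The LYS2 ratio of upstream to ORF was 12.8, below the members' median, although its upstream window ranked 6 among them. THR1, for homoserine kinase, was the other member with a hotspot reaching its ORF, over its last 8 bp.

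The lowest members were spread over several pathways. LYS1, for the saccharopine dehydrogenase of the last lysine step, gave 0.0214, 0.00981, 0.0347, 0.0219 and 0.0185 HpM per bp, from 33 to 78 hits, against 0.0920 in spo11-Y135F. It was the member without a call, at 0.30 ± 0.19 on the log2 scale (SE; edgeR adjusted p = 0.139), and its hits had no cluster. ARG8, for acetylornithine aminotransferase, gave 0.0447, 0.0439, 0.0626, 0.0528 and 0.0594, against 0.144 in spo11-Y135F. ARO7, for chorismate mutase, which turns chorismate towards phenylalanine and tyrosine, gave 0.0755, 0.0612, 0.0622, 0.0719 and 0.0572 (0.0937 in spo11-Y135F). In these 3 genes every SPO11+ replicate lay below the control library. HOM6, for homoserine dehydrogenase, behaved likewise at 0.0743, 0.0785, 0.0675, 0.0607 and 0.0605 (0.0886 in spo11-Y135F).

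The ARG8 window was the only member window that held a cluster of hits in spo11-Y135F. On chromosome XV between 58624 and 58696 the control library had 62 hits or 26.7 HpM, and the same 73 bp held 11.6 HpM in SPO11+. ARG8 was called upstream against its ORF at 1.57 ± 0.20 on the log2 scale (SE; edgeR adjusted p = 1.57e-10), the largest adjusted p among the 39 calls. Its upstream to ORF ratio in spo11-Y135F was 1.62, the highest of the members, and the part of this cluster in the SPO11+ contrast was not tested.

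Most pathway groups overlapped in range, and each was described by its range only. The group medians ran from 0.972 HpM per bp for the shared aromatic genes and 0.842 for lysine through 0.723 for the sulphur genes, 0.590 for leucine and 0.496 for isoleucine and valine. They continued at 0.401 for arginine, 0.372 for aspartate and threonine, 0.284 for tryptophan and 0.152 for histidine. Several groups held both high and low genes, as arginine did with ARG1 and ARG8. The 4 histidine genes kept to the narrowest range, all between 0.139 and 0.194. Among the members, that range lay below the lowest sulphur gene (0.201), the lowest isoleucine and valine gene (0.322) and the lowest leucine gene (0.342). It did not hold beyond the list. Of sulphur genes outside it, MET14 lay below the range at 0.0356 and MET13 above it at 1.50.

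The 4 histidine members were therefore the most even of the groups as listed. Histidine genes outside the list fell on both sides of their range, HIS2 at 0.669 and HIS6 at 0.0931 HpM per bp. HIS7, for imidazole glycerol phosphate synthase, was the highest of the 4 at 0.195, 0.235, 0.172, 0.198 and 0.169 HpM per bp (0.107 in spo11-Y135F). HIS1, for the first enzyme of the pathway, was the lowest of the 4 at 0.157, 0.149, 0.102, 0.1702 and 0.119 (0.0929 in spo11-Y135F). In both the lowest replicate was less than 2 times the control. HIS7 lies beside ARO4, in tandem, and 84 bp of the ARO4 ORF fall in its window. ARO4 in turn had its own hotspot of 777 bp in the divergent region shared with SPO23.

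The other groups spread more widely than the 4 histidine members. ILV1, for threonine deaminase, the first enzyme of isoleucine synthesis, gave 0.354, 0.350, 0.259, 0.337 and 0.309 HpM per bp (0.0757 in spo11-Y135F), and was the lowest of its group. TRP3, for a subunit of anthranilate synthase, gave 0.434, 0.426, 0.387, 0.259 and 0.389 (0.0800 in spo11-Y135F). TRP4, for anthranilate phosphoribosyltransferase, gave 0.0787, 0.0663, 0.0760, 0.0657 and 0.0745 (0.112 in spo11-Y135F). Consecutive steps of tryptophan synthesis thus lay on opposite sides of the control library. TRP4 was still called upstream against its ORF, with a fitted ratio of 3.94 in SPO11+. HOM2, for aspartate semialdehyde dehydrogenase, gave 0.601, 0.645, 0.508, 0.733 and 0.509 (0.0989 in spo11-Y135F). CYS4, for cystathionine beta-synthase, gave 0.867, 0.933, 0.735, 0.748 and 0.878 (0.101 in spo11-Y135F). MET3, for ATP sulfurylase, gave 0.192, 0.222, 0.186, 0.207 and 0.201 (0.0903 in spo11-Y135F). The sulphur genes CYS4 and MET3 both lay above the control library in every replicate, with MET3 nearer to it.

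HOM2 was a special case of annotation. The nearest ORF, YDR157W, ends 24 bp before HOM2 and fills the other 476 bp of the window, so that 0.377% of the window's hits lay outside annotated ORFs. Its hotspot (chromosome IV, 770003 to 770242) is therefore inside an ORF of the gene table, although it lies 115 to 354 bp before the HOM2 start codon.

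Where one reaction has 2 enzymes, the genes were compared within each library, as a description. LEU4 and LEU9 both encode isopropylmalate synthase, and LEU4 exceeded LEU9 by 15.3-fold (13.5 to 17.3 over the replicates). LEU9 itself gave 0.333, 0.356, 0.306, 0.358 and 0.355 HpM per bp (0.0774 in spo11-Y135F). ARO4 and ARO3 both encode the first enzyme of the aromatic pathway, and ARO4 exceeded ARO3 by 12.9-fold (10.4 to 16.8). The homocitrate synthase genes LYS20 and LYS21 had nearly the same mean, with a ratio of 1.02 (0.886 to 1.32), and LYS20 was higher in 2 of 5 replicates. In spo11-Y135F the 3 ratios were 1.20, 0.765 and 1.07.

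The members' hits sat farther from the start codon than those of the typical gene. In 50 bp bins the median over members was highest between 201 and 300 bp before the start codon, at 0.570 ± 0.060 and 0.575 ± 0.064 HpM per bp in the 2 bins (SD, n = 5). Over all ORFs it was highest between 151 and 200 bp, at 0.132 ± 0.009. Between 251 and 300 bp the medians differed by 10.1-fold, and between 51 and 100 bp they were alike at 0.0562 and 0.0587. In spo11-Y135F the members' medians stayed between 0.0774 and 0.103 HpM per bp throughout.

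**Figure D4:**
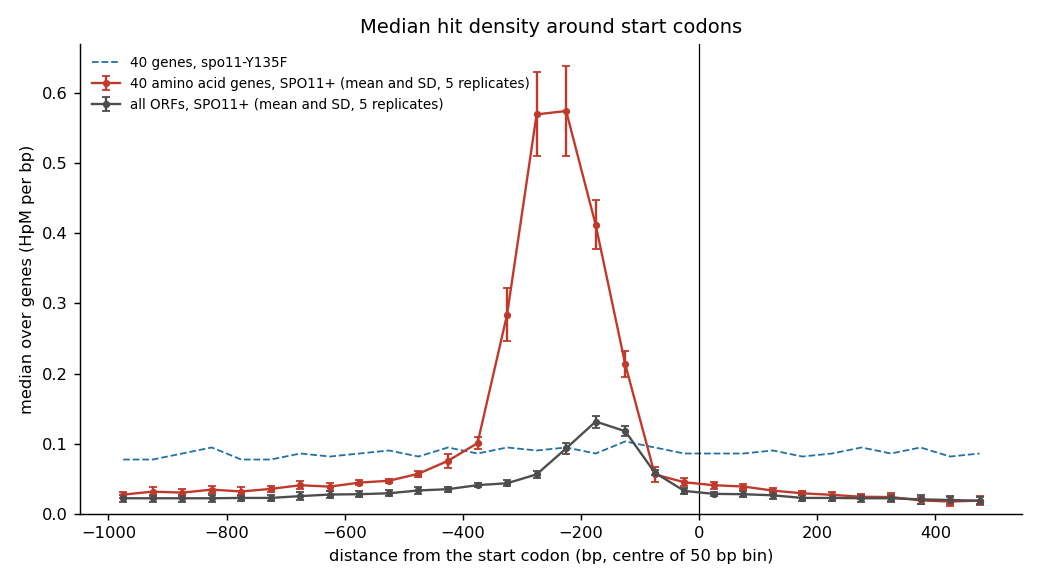
Median hit density (HpM per bp) over the 40 genes and over all ORFs in 50 bp bins, plotted by distance from the start codon, with error bars of 1 SD over the 5 SPO11+ replicates and a dashed line for the 40 genes in spo11-Y135F. The members' maximum of 0.575 lies between 201 and 250 bp upstream, beyond that of all ORFs.

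The same held gene by gene. Among the 34 members with a hotspot, the highest smoothed signal in the window lay at a median of 256.5 bp before the start codon, and in 30 (88.2%) it lay at least 200 bp away. Among the 3396 ORFs with a hotspot the median was 212 bp, and 53.5% lay at least 200 bp away. The difference lay on the near side, where the quartiles were 214.25 bp for members and 142 bp for ORFs. The far quartiles were alike, at 326.75 and 328 bp. The gap between medians was smaller in windows free of coding sequence, where they were 321 bp for 22 members and 305 bp for 1583 ORFs. The position was steady, moving by at most 20 bp between replicates in 29 of the 34.

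Members were denser than all ORFs within each gene arrangement. Only 15 of 40 members (37.5%) are divergent from their upstream neighbour, against 52.0% of all ORFs. Divergent members had a median of 0.496 HpM per bp against 0.179 for all divergent ORFs, and tandem members 0.310 against 0.0918. Windows without coding sequence were found for 22 members of 40, against 43.0% of all ORFs,, with medians of 0.543 and 0.171. In the 18 members with coding sequence in the window the median was 0.274, against 0.110. The median intergenic distance was 602 bp for members and 444 bp for all ORFs. The 6 members without a hotspot, ARO3, TRP4, HOM6, ARO7, ARG8 and LYS1, were all tandem and all had coding sequence in the window. Of the 15 members in that class, 9 did have a hotspot, against 46.8% of all ORFs in it. Any part of the arrangement in the missing hotspots was not tested.

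Members' hotspots were wide. Their median width was 277.5 bp, against 187 bp for all hotspots, and their median strength 254 HpM against 115. Member hotspots were picked by overlap with a window, which favours wide ones, and all hotspots were not. A comparison with hotspots reaching the windows of all ORFs was not made. Width and strength cover the whole hotspot, which at ARO4 ran to 951 bp before the start codon. Of the 34, 7 exceeded 500 bp (9.32% of all hotspots), at ARG1, LEU4, ILV5, ARO2, ARO4, LYS20 and MET2. The weakest member hotspot, at HIS1, was 102 bp wide and held 33.6 ± 7.9 HpM (SD, n = 5).

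Most hits in the members' windows were at paired sites, where a Watson position and the Crick position 1 bp higher both had hits. Their share was 86.6%, 91.6%, 89.0%, 87.2% and 87.6% in replicates 1 to 5, a mean of 88.4% ± 1.98 (SD, n = 5). In the windows of all ORFs it was between 76.9% and 86.9%, and in spo11-Y135F it was 10.2% in both sets. Any hit on both strands made a site paired, so the share can rise with the number of hits alone. The members' windows held 51529 to 142624 hits in the SPO11+ replicates and 4356 in spo11-Y135F. Replicate 2, with the highest share, also had the most hits. The part of depth in these differences, including those from all ORFs and from the control, was not tested.

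Several member sites were strongly biased to one strand all the same. The strongest site of LEU9 had 13 Watson and 487 Crick hits summed over the replicates, that of TRP5 (tryptophan synthase) 29 and 308, and that of HOM6 8 and 90. ARG3, for ornithine carbamoyltransferase, was biased the other way with 475 Watson and 94 Crick hits. Summed over the whole window the Watson share was 19.6% for LEU9, 22.1% for TRP5 and 76.9% for ARG3, and 21 of the 34 members with a hotspot lay between 40% and 60%, against 73.3% of ORFs with a hotspot. In 18 members the strongest site of the mean map was also the strongest in each of the 5 replicates. At 34 of the 40 strongest sites spo11-Y135F had no hit, where 3 hits in its total would be 1.29 HpM. Hits of spo11-Y135F were sparse throughout, at a median of 0.0862 HpM per bp in ORFs, so empty sites are common anywhere in it. The share of empty sites over all positions was not counted, so the 34 are no result about these sites.

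The other 19 members had means from 0.0756 (ARO3) to 0.972 HpM per bp (ARO4), and in 18 of them every SPO11+ replicate exceeded spo11-Y135F and a hotspot reached the window.

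Replicates differed little for most members, with a median coefficient of variation of 11.3%, and 32 members stayed within 1.5-fold from the lowest to the highest replicate. Of the members with a hotspot, LYS21, TRP3, HIS1, TRP2, LYS9 and LEU1 ranged over 1.51- to 1.80-fold. BAT1, for the mitochondrial branched-chain aminotransferase, was the only one of them beyond 2-fold and was picked out for that spread. It gave 0.670, 0.346, 0.431, 0.302 and 0.731 HpM per bp (0.0946 in spo11-Y135F), a range of 2.42-fold. The 2 technical libraries of replicate 5 gave 0.768 and 0.704, so both lay above replicates 1 to 4. Among ORFs above 0.1 HpM per bp, 13 had a coefficient of variation at or above the 39.0% of BAT1. Its peak stayed between 180 and 184 bp before the start codon in all 5.

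**Figure D5:**
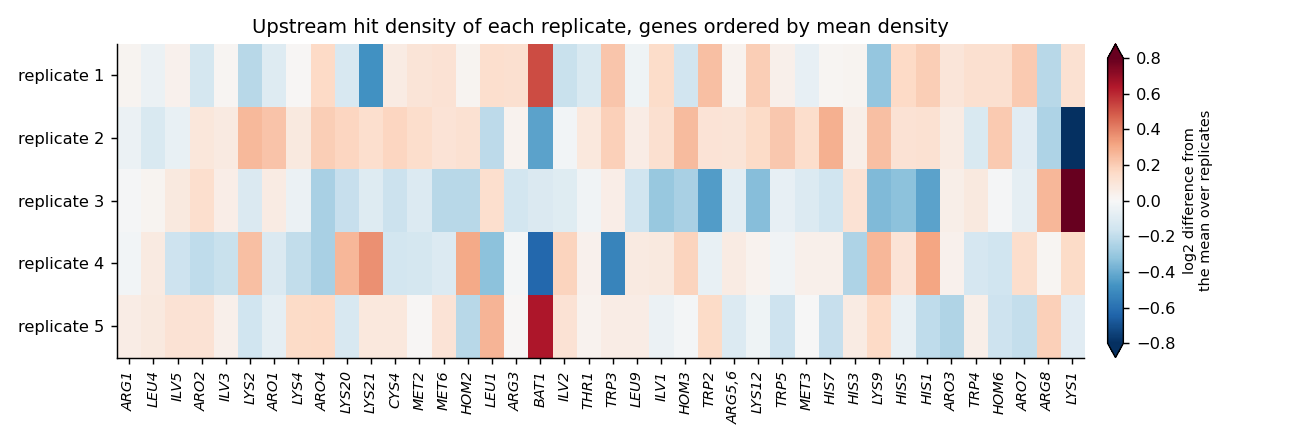
Log2 difference of each SPO11+ replicate (rows) from the mean over replicates in upstream hit density, for the members (columns) ordered by mean density, with red above and blue below the mean. BAT1 stands out among the denser genes, in replicates 1 and 5 above and in replicates 2 and 4 below, and LYS1 varies most with 33 to 78 hits per replicate.

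Other genes of amino acid biosynthesis and regulators of these pathways were counted for comparison. Of 45 further biosynthesis genes 42 had more hits per bp upstream than in the ORF (89.3% of all ORFs) and 1 had fewer (4.36%). A hotspot was found for 38 (84.4%, against 60.5% of all ORFs), and the median upstream density was 0.283 HpM per bp. The highest were ARG4, for argininosuccinate lyase, at 1.83 ± 0.26 HpM per bp and GLY1, for threonine aldolase, at 1.82 ± 0.26, and the lowest was TYR1 at 0.0284 ± 0.0070 (SD, n = 5). ARG4 acts on the product of Arg1, so that both of the last steps of arginine synthesis had upstream windows above 1 HpM per bp. Of 18 regulators 16 had more hits upstream (89.3% of all ORFs) and none had fewer in edgeR's test, with or without adjustment. A hotspot was found for 12 (66.7%, against 60.5% of all ORFs), and the median was 0.188 HpM per bp. Both regulator counts were near the shares of all ORFs. The highest were MET4 at 2.17 ± 0.23, whose window shares the region and hotspot of LEU4, and ABF1 at 0.940 ± 0.023. GCN4, the general activator itself, was the lowest at 0.0133 ± 0.0027 HpM per bp (SD, n = 5), below all 40 members. That value covers only the 500 bp before its start codon. Transcription starts were not used, so whether its promoter lies in that window was not examined.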

How the data were processed

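CC-seq libraries of sae2∆ cells after 6 h of meiosis were analysed as 5 SPO11+ replicates and 1 spo11-Y135F library, grouped by their labels. Before deposition the authors used Bowtie2 to align read pairs to the Cer3H4L2 build, took the first base of read 1 as the hit, and dropped repeats (LTRs, retrotransposons), telomeres and rDNA. Single libraries were deposited as raw counts of hits at each position of each strand. An average over SPO11+ libraries, deposited in HpM,  served only as an alternative. No column was left unused.

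Gene positions and names were those of assembly R64, a build that differs from that of the maps, so that distances from start codons carry this limit. None of its coordinates is given, and all coordinates printed are those of the maps. Stretches over 200 bp with no hit in the pooled libraries were masked. ORFs needed 250 unmasked bp upstream and 100 within. Chromosome III was left out.

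The 40 members, their groups and the comparison lists were chosen with earlier results of these data known. Windows were compared with edgeR 4.0.16 (quasi-likelihood, replicate as a block, offset of total hits times length, at least 10 hits), with DESeq2 1.42.0 as an alternative. Same-numbered windows come from the same library, which is where the pairing comes from. On simulated counts of 5617 genes all 200 changed genes were called, with 7 unchanged ones. Hotspots needed 25 bp above 3 times the mean after Hann smoothing over 100 bp to each side, and were merged within 200 bp. Values in every replicate are given for the 8 highest and 4 lowest members, the extremes of each group and members not called. Totals of 3177210 to 8564017 hits set the SPO11+ precision. Wilson intervals and floors cover counting error only. Python 3.11.15 and R 4.3.3 were used. Hits at the Gcn4 motif were planned but are not analysed here, since no genome sequence was used.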

Additional observations from a re-analysis of the deposited data

Results flagged for a closer look

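In 4 of 45 measures 1 replicate lay far from the other 4, by a gap over 0.71 of the whole range. Chance flags about 1 in 20 such groups, or 2.25 of 45. Replicate 4 was low for ILV3, at 1.25 HpM per bp upstream against 1.43 to 1.49 in the others. It was low for TRP3 as well, at 0.259 against 0.387 to 0.434, and for HIS3, at 0.138 against 0.166 to 0.176. For ARO3 it was replicate 5 that was low, at 0.0639 against 0.0770 to 0.0806. Over all 40 members replicate 3 was the lowest for 14 and replicate 4 for 12. All 4 genes kept their side of the spo11-Y135F value without the replicate in question.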

How the results depend on the processing

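The 39 members with more hits upstream than in the ORF were 39 with TMM factors, DESeq2, no filter, 300 bp windows, ORFs from 300 bp on and without each replicate in turn (39 to 39), and 38 of 39 outside ORFs, where HOM2 could not be tested. Without the replicate block they were also 39, so that the block changed no call of a member, and TMM factors are absorbed by the block. No paired analysis was possible between genotypes because SPO11+ and spo11-Y135F share only 1 replicate number. The ratio of medians of 3.10 became 2.61 with means in place of medians, and was 3.03 to 3.19 without each replicate. The following were chosen after seeing the data: it was 3.41 in windows without and 2.50 in windows with coding sequence, 2.95 without LYS2, and 2.89 and 2.87 with all start codons moved by 60 bp to either side. The members' share of hits, 1.63%, became 0.810% in 300 bp windows, 1.57% outside ORFs and 1.06% without ARG1 and LEU4 (also chosen after seeing the data), and was 1.62% to 1.65% without each replicate. Counts above spo11-Y135F (34 to 34) and with a hotspot (34 to 34) did not move without a replicate, and hotspots at 2 and 5 times the mean reached 37 and 31 members (69.9% and 46.1% of all ORFs). Paired sites held 80.2% of hits at 8 hits or more, and 87.6% to 88.8% without each replicate. The planned motif alternatives were not run. Depth limits LYS1 most, with at most 78 hits in a replicate.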
